A study of Mus musculus with 4 samples.

Results

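The 50 genes described here encode the enzymes of sterol synthesis, the SREBP control proteins, and the main enzymes of fatty acid synthesis, activation, oxidation, storage and sterol efflux. They were chosen by symbol, and 49 of them had a row among the 28141 genes of the table, Hadh being the one without. RNA was taken from leukaemia cells of the bone marrow of C57BL/6 mice. Wild-type cells (WT) gave 2 libraries and conditional Ybx1 knockout cells (Ybx1 cKO) gave 2; Ybx1 is the gene of a cold-shock domain protein that binds nucleic acids. The study's title places these cells among leukaemia stem cells of chronic myeloid leukaemia. The oncogene, the Cre driver, the deleted exons, and the age and number of the mice are not given in the sources used here. Nothing said that replicates were separate animals, so the p-values rest on the scatter of these samples alone, and that scatter may be technical.

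Cells make cholesterol from acetyl-CoA, through mevalonate and isoprenoid units to squalene, which is closed into a ring and trimmed in many steps. When sterols are scarce, the SREBP transcription factors, escorted by SCAP and held back by the INSIG proteins, switch on most of these enzymes together. When sterols are plentiful, the LXR receptors raise the exporters ABCA1 and ABCG1. Fatty acids are built by acetyl-CoA carboxylase and fatty acid synthase, lengthened by elongases, desaturated, activated by acyl-CoA synthetases, and then stored or burned in mitochondria.

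Levels are given as log2 levels, obtained by multiplying the deposited log-scale values by 0.693. That factor was inferred from the noise between replicates and was not stated in the sources. Read as plain log2 instead, all changes would be 1.44 times as large and the p-values the same. Depth is unknown because the table held no counts. Changes (log2 fold changes) are cKO minus WT, with their SE and adjusted p from limma over all 15527 genes tested, and "rose" and "fell" mean an adjusted p under 0.05. Ybx1 itself was lower in both cKO libraries, at 9.31 and 9.41 in WT and 8.19 and 8.13 in cKO (limma: change -1.20 ± 0.08 SE, adjusted p = 1.1e-11).

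All 49 members with a row passed the filter on low values, and 30 of them (61.2%) passed the test, 15 higher and 15 lower in cKO. In bulk RNA, fewer cells of a type and less RNA per cell cannot be told apart. Among all tested genes 37.4% passed, 19.5% higher and 17.8% lower. The members were better expressed than most genes, with a median log2 level of 9.01 against 6.73, and well expressed genes pass more often. Of tested genes at a mean log2 level of 7 or more, 61.4% passed, beside 28 of the 41 members at that level (68.3%). The median size of change, without its sign, was 0.32 on the log2 scale for the members and also 0.32 for all tested genes. The 2 groups did not overlap for 39 members (79.6%), against 65.1% of all tested genes. The 5 oxidation genes and the 3 storage and efflux genes that passed were higher in cKO, and 4 of 5 SREBP control genes were lower; whether direction differs between roles was not tested. These counts depend on the fit: division by the library sum gave 3 higher and 2 lower oxidation genes, and a prior variance that ignores the level gave 1 higher and 0 lower SREBP control genes. The median log2 fold change was -0.03 over the members and 0.00 over all tested genes. If each library is instead divided by its summed level, which moves the median of all genes to -0.12, 11 members were higher and 20 lower (2132 and 4047 of all genes, in place of 3035 and 2768). With levels shifted to a common median, 3626 genes were higher and 2358 lower, and 17 members were higher and 13 lower.

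**Figure D1:**
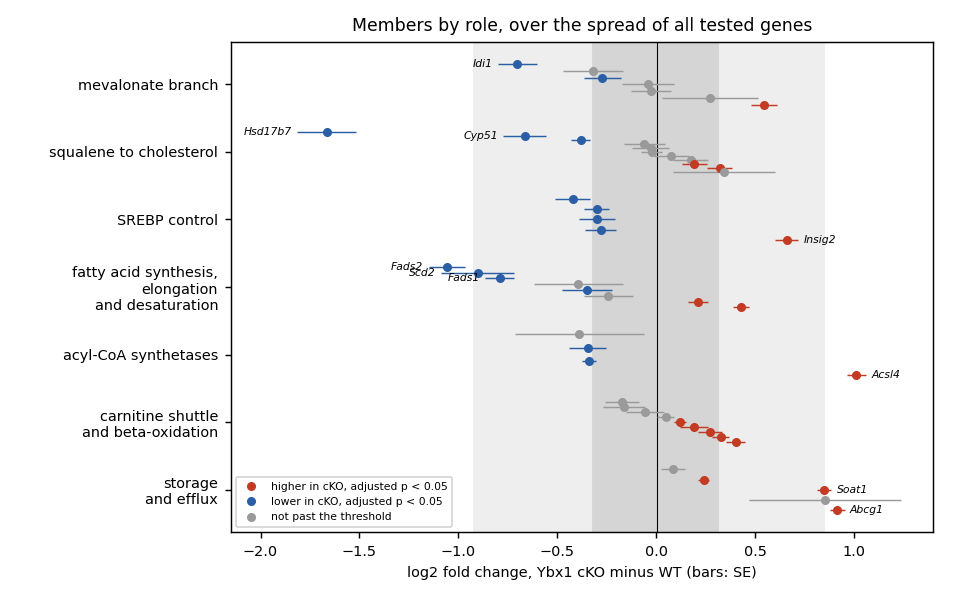
Log2 fold change (Ybx1 cKO minus WT, bars SE) of the 49 tested members by role, with colour for the limma call. The dark and light bands hold the middle of all 15527 tested genes (percentiles 25 to 75 and 5 to 95), with Hsd17b7 and Fads2 below the light band, Acsl4 and Abcg1 above it, and Soat1 and Abca1 at its upper edge.

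Upstream sequences are shown for 4 sterol enzyme genes that fell and for the 2 INSIG genes, which moved in opposite directions. They are RefSeq windows of 300 bases on GRCm38.p6, from 250 bases before to 50 after an annotated start, in which 43 of the 49 members were found. Capitals mark the CCAAT box (CCAAT on either strand, the core of the Y-box after which Ybx1 is named, also bound by the factor NF-Y), the E-box CACGTG, and TCACNCCAC on either strand, a core of the sterol regulatory element that SREBPs bind. The windows lie at chr13:119690101-119690400 on the plus strand (Hmgcs1), chr13:8885356-8885655 on the plus strand (Idi1), chr5:4104648-4104947 on the minus strand (Cyp51), chr1:169969156-169969455 on the minus strand (Hsd17b7), chr5:28071162-28071461 on the plus strand (Insig1) and chr1:121332540-121332839 on the minus strand (Insig2, the most upstream of its 3 windows).
Hmgcs1: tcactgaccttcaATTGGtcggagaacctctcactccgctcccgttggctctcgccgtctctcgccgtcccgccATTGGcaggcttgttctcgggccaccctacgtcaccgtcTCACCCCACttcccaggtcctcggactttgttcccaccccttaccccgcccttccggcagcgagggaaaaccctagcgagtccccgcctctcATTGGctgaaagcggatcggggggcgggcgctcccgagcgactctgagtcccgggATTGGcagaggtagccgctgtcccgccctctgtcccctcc
Idi1: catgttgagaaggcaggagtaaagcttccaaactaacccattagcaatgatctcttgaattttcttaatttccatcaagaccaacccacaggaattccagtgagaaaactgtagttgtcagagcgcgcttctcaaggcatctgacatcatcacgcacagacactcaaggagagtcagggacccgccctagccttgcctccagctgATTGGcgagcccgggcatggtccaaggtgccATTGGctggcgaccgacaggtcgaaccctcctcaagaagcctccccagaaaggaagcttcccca
Cyp51: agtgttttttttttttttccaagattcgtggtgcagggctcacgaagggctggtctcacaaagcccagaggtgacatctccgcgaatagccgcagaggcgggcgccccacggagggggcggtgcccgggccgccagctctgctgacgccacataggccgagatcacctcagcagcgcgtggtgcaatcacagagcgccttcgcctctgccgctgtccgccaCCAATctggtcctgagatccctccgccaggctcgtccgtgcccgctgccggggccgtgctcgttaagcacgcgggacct
Hsd17b7: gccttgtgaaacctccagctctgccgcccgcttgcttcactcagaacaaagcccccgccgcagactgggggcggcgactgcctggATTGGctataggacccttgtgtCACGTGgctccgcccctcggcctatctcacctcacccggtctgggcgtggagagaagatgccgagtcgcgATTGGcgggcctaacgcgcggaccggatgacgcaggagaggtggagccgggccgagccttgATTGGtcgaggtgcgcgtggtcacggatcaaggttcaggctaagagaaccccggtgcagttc
Insig1: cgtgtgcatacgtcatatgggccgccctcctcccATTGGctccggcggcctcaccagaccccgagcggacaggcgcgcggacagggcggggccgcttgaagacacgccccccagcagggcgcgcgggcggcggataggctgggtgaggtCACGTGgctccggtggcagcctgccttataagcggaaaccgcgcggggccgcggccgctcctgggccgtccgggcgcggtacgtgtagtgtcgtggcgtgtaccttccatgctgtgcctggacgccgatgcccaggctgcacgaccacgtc
Insig2: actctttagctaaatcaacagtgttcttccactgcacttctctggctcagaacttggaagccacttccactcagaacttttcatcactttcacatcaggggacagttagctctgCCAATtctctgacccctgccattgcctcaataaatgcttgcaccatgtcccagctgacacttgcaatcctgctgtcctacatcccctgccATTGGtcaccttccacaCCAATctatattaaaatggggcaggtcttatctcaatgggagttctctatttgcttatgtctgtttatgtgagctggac

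A CCAAT box stood in the windows of 29 of the 43 members (67.4%), against 41.1% of all 27025 genes with a window and 42.9% of the 10601 tested ones. It occurred in 9 of 12 members that fell, 8 of 14 that rose and 12 of 17 that did not pass. Hmgcs1 held 4 copies, Hsd17b7 and this Insig2 window 3 each, Idi1 2, and Cyp51 and Insig1 1 each. The other 2 windows of Insig2 held none of the 3 motifs. CACGTG was found for 8 members (18.6%, against 8.09% of all and 11.2% of tested genes), among them Hsd17b7 and Insig1. By call, these were 3 of 12 members that fell, 3 of 14 that rose and 2 of 17 that did not pass. TCACNCCAC was found for 2 members, Hmgcs1 and Acsl1 (4.65%, against 1.44% of all and 1.36% of tested genes). Both of these genes fell, but neither passed without a filter on low values or with a prior variance that ignores the level. How many of all tested genes with this motif fell was not counted. Copies on the 2 strands count alike, the motifs share no letters in the windows shown, and a match is not a bound site.

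In the mevalonate branch, from acetyl-CoA to farnesyl diphosphate, 2 of 7 genes fell and 1 rose. Idi1, the isomerase that makes the reactive isoprene unit, read 8.45 and 8.46 in the WT libraries against 7.78 and 7.73 in the cKO ones. Both cKO libraries were lower by far more than the replicates differed, and Idi1 fell 1.63-fold (limma: change -0.70 ± 0.10 SE, adjusted p = 2.4e-06). Transcripts of other genes, predicted ones among them, share 17.7% of its 50-base words, so reads of Idi1 may be partly unassigned. Hmgcs1, which makes the HMG-CoA that feeds the pathway, read 8.53 and 8.47 in the WT libraries against 8.32 and 8.14 in the cKO ones. Its level fell by 0.27 (± 0.09 SE; limma, adjusted p = 0.025), a call lost when WT replicate 1 (adjusted p = 0.16), WT replicate 2 (adjusted p = 0.057) or cKO replicate 2 (adjusted p = 0.17) was left out.

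Acat2, the thiolase that joins acetyl-CoA units in the cytosol, moved the other way. Its level was 9.38 and 9.43 in WT and 9.85 and 10.04 in cKO, a 1.46-fold rise (limma: change 0.54 ± 0.07 SE, adjusted p = 3.4e-07). Acat2 shares 39.1% of its 50-base words with its copy Acat3, so reads of the pair could be split or dropped. The kinase genes Mvk and Pmvk, the decarboxylase gene Mvd and the farnesyl diphosphate synthase gene Fdps did not pass, with log2 fold changes from -0.32 for Mvk to 0.27 for Fdps. Mvk passed when cKO replicate 1 was left out (change -0.41, adjusted p = 0.049), and passed after division by the library sum (adjusted p = 0.02). Fdps shares 26.2% of its words with other genes, chiefly an overlapping predicted gene, and its log2 level of 5.42 ± 0.19 (SD, n = 2) in WT may be affected.

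Between squalene and cholesterol, 3 of 11 genes fell, 2 rose and 6 did not pass. Hsd17b7, a sterol ketoreductase, had the largest change of all members. It read 7.87 and 7.74 in the WT libraries against 6.04 and 6.24 in the cKO ones, a 3.17-fold fall (limma: change -1.67 ± 0.15 SE, adjusted p = 1.8e-09). The gap between the groups was far larger than the difference between replicates of either. Cyp51, the lanosterol demethylase, read 8.35 and 8.32 in the WT libraries against 7.80 and 7.55 in the cKO ones, a 1.59-fold fall (limma: change -0.66 ± 0.11 SE, adjusted p = 2.0e-05). Sqle, squalene epoxidase, a rate-limiting enzyme of the late pathway, read 10.84 and 10.82 in the WT libraries against 10.44 and 10.45 in the cKO ones, a 1.30-fold fall (limma: change -0.38 ± 0.05 SE, adjusted p = 2.3e-07). The 3 genes that fell do not follow one another in the pathway.

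Lss, lanosterol synthase, which closes the ring between the steps of Sqle and Cyp51, was higher in cKO. It read 9.35 in both WT libraries against 9.70 and 9.65 in the cKO ones (limma: change 0.32 ± 0.06 SE, adjusted p = 2.0e-04). Sc5d, a late desaturase, rose by 0.19 (± 0.06 SE; limma, adjusted p = 0.015), but not without WT replicate 1 (change 0.14, adjusted p = 0.22), nor after division by the library sum (log2 fold change 0.07). Fdft1 (squalene synthase), Tm7sf2, Msmo1, Nsdhl, Ebp and Dhcr7 did not pass, with log2 fold changes from -0.06 for Dhcr7 to 0.34 for Tm7sf2, the one with the lowest WT level per exonic length. Ebp, a sterol isomerase, had a change of 0.18 (adjusted p = 0.13) and passed when WT replicate 1 (change 0.32, adjusted p = 0.0066) or cKO replicate 1 (change 0.27, adjusted p = 0.007) was left out. Msmo1, a sterol methyl oxidase, read 10.33 and 10.36 in the WT libraries against 10.38 and 10.26 in the cKO ones, with overlapping groups. Over all 18 sterol synthesis enzymes, 5 fell, 3 rose and 10 did not pass (median change -0.03). With the prior variance that ignores the level, 0 of them rose and 2 fell. In that limma fit Acat2 (adjusted p = 0.057), Lss (adjusted p = 0.066) and Sc5d (adjusted p = 0.18) no longer passed. Among the falls, Sqle (adjusted p = 0.051), Cyp51 (adjusted p = 0.053) and Hmgcs1 (adjusted p = 0.16) lost their calls too.

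**Figure D2:**
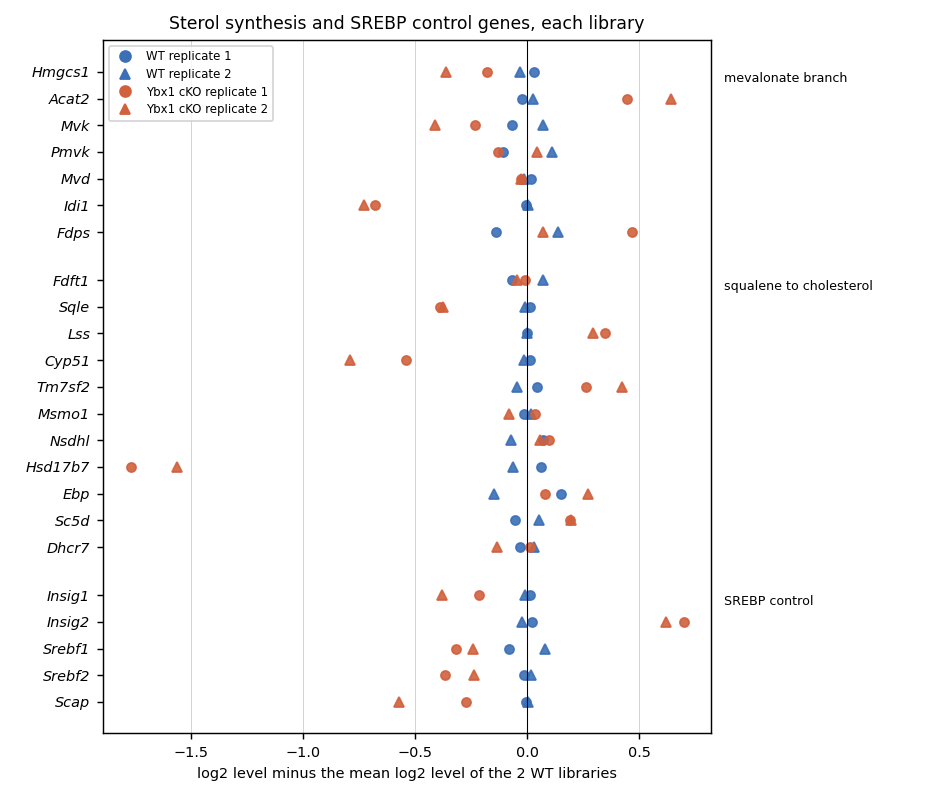
Log2 level of each sterol synthesis and SREBP control gene in each library, minus the mean of the 2 WT libraries. Genes are grouped by role (circles replicate 1, triangles replicate 2). Hsd17b7, Idi1, Cyp51 and Sqle lie left of WT in both cKO libraries, while Acat2, Lss and Insig2 lie right of it.

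All 5 SREBP control genes passed, 4 lower and 1 higher. Srebf2, the SREBP that mainly drives sterol enzymes, read 9.76 and 9.79 in the WT libraries against 9.41 and 9.54 in the cKO ones, and fell 1.23-fold (limma: change -0.30 ± 0.06 SE, adjusted p = 4.6e-04). Srebf1, whose products mainly drive fatty acid synthesis, read 9.07 and 9.23 in the WT libraries against 8.83 and 8.90 in the cKO ones, and fell 1.21-fold (limma: change -0.28 ± 0.08 SE, adjusted p = 5.6e-03). That call was lost when WT replicate 2 (adjusted p = 0.16) was left out. Scap, the escort, read 8.989 and 8.997 in the WT libraries against 8.72 and 8.42 in the cKO ones, and fell 1.34-fold (limma: change -0.42 ± 0.09 SE, adjusted p = 4.9e-04). Without cKO replicate 2 the log2 fold change of Scap was -0.27 (adjusted p = 0.0089). These falls were smaller than those of Idi1, Cyp51 and Hsd17b7.

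The 2 INSIG genes, whose proteins hold SCAP in the endoplasmic reticulum, went opposite ways. Insig1, itself an SREBP target, read 8.63 and 8.61 in the WT libraries against 8.40 and 8.24 in the cKO ones, and fell 1.23-fold (limma: change -0.30 ± 0.09 SE, adjusted p = 0.011). Its call was lost when WT replicate 1 (adjusted p = 0.067) or cKO replicate 2 (adjusted p = 0.083) was left out. Insig2, which is not driven by SREBPs in the same way, read 9.60 and 9.56 in the WT libraries against 10.28 and 10.20 in the cKO ones, and rose 1.58-fold (limma: change 0.66 ± 0.06 SE, adjusted p = 1.1e-09). Every cKO library was above every WT library for Insig2, and every one below for Insig1. When the prior variance did not follow the level, only Insig2 of these 5 genes still passed, and without a filter on low values only Insig2 and Srebf2 did.

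Of the 8 genes of fatty acid synthesis, elongation and desaturation, 4 fell and 2 rose. The desaturases among these members gave the largest falls. Fads2, the enzyme that starts the making of long polyunsaturated fatty acids, read 9.51 and 9.63 in the WT libraries against 8.68 and 8.34 in the cKO ones, a 2.08-fold fall (limma: change -1.06 ± 0.09 SE, adjusted p = 8.1e-10). Fads1, which acts later in the same route, read 10.20 in both WT libraries against 9.26 and 9.56 in the cKO ones, a 1.73-fold fall (limma: change -0.79 ± 0.07 SE, adjusted p = 2.8e-09). Both are neighbours on chromosome 19 of GRCm38 in GENCODE (Fads2 from 10062765 to 10101746, Fads1 from 10182888 to 10196877). Fads3, the third gene of this cluster, named after its values were seen, was low and did not pass (limma: change 0.34 ± 0.50 SE, adjusted p = 0.65).

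Scd2, a desaturase that makes monounsaturated fatty acids, read 6.76 and 6.74 in the WT libraries against 5.74 and 5.96 in the cKO ones, a 1.87-fold fall (limma: change -0.90 ± 0.19 SE, adjusted p = 3.4e-04). The related gene Scd3, not a member and named after its values were seen, went the other way. From a lower level, 4.69 in WT, it rose by 0.78 (SE 0.27, limma adjusted p = 0.026). The elongases did not move together. Elovl1, which extends saturated very long chains, read 11.13 and 11.17 in the WT libraries against 11.55 and 11.61 in the cKO ones, a 1.35-fold rise (limma: change 0.43 ± 0.04 SE, adjusted p = 3.0e-09). It shares 53 exonic bases with Cdc20 on the opposite strand. Elovl5, which extends polyunsaturated acids, rose by 0.21 (± 0.05 SE; limma, adjusted p = 1.2e-03), but only by 0.09 after division by the library sum (adjusted p = 0.17).

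Elovl6, which extends the products of fatty acid synthase, read 8.07 and 7.81 in the WT libraries against 7.77 and 7.41 in the cKO ones, and fell by 0.35 (± 0.13 SE; limma, adjusted p = 0.034). Its nearest WT and cKO libraries differed by less than the replicates did, and the call was lost when WT replicate 1 (adjusted p = 0.34) or cKO replicate 2 (adjusted p = 0.32) was left out. Without cKO replicate 1 its change was -0.53. The 2 member genes of the synthesis step itself did not pass. Fasn, fatty acid synthase, read 7.56 and 7.70 in the WT libraries against 7.32 and 7.45 in the cKO ones (limma: change -0.24 ± 0.12 SE, adjusted p = 0.14). Acaca, an acetyl-CoA carboxylase gene, had a log2 fold change of -0.39 (SE 0.23, limma adjusted p = 0.19). It shares 30.4% of its 50-base words with other genes. Acacb, a second carboxylase gene, is not a member and was named after its values were seen. Its level fell by 0.28 (SE 0.07, limma adjusted p = 0.0035).

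The acyl-CoA synthetases, which activate fatty acids, differed among themselves. Acsl4, which prefers arachidonic and other polyunsaturated acids, read 9.89 in both WT libraries against 10.89 and 10.91 in the cKO ones. The gene, on chromosome X from 142317993 to 142390535, rose 2.02-fold (limma: change 1.01 ± 0.05 SE, adjusted p = 2.0e-14), the largest rise among the members that passed. Acsl5 read 11.84 and 11.89 in the WT libraries against 11.51 and 11.55 in the cKO ones, and fell 1.27-fold (limma: change -0.34 ± 0.04 SE, adjusted p = 3.4e-08). Acsl1 read 8.80 and 8.56 in the WT libraries against 8.29 and 8.39 in the cKO ones, and fell by 0.35 (± 0.09 SE; limma, adjusted p = 4.6e-03), a call lost when WT replicate 1 (adjusted p = 0.18) was left out. Acsl3 was low, with replicates 0.71 apart in cKO, and did not pass (change -0.39, adjusted p = 0.40). Acsl5 had the highest WT level per exonic length of the 4 genes and Acsl4 the next.

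Among the 9 tested genes of the carnitine shuttle and beta-oxidation, 5 rose and 0 fell, the median change being 0.12. Acadm, the medium-chain dehydrogenase, read 10.20 and 10.21 in the WT libraries against 10.59 and 10.63 in the cKO ones, a 1.32-fold rise (limma: change 0.40 ± 0.05 SE, adjusted p = 2.9e-07). Acadvl, the very-long-chain dehydrogenase, read 10.67 and 10.73 in the WT libraries against 11.02 and 11.03 in the cKO ones (limma: change 0.33 ± 0.04 SE, adjusted p = 1.4e-06). Of its exonic bases, 42.9% overlap Dvl2 on the opposite strand, and without strand the reads of the pair cannot be told apart. Hadha, a subunit of the mitochondrial trifunctional protein, rose by 0.27 (± 0.06 SE; limma, adjusted p = 6.3e-04), while its partner Hadhb had a log2 fold change of 0.05 (SE 0.04, adjusted p = 0.43). Other genes share 19.7% of the 50-base words of Hadhb, so its reads may be partly unassigned. With levels shifted to a common median Hadhb passed (change 0.11, limma adjusted p = 0.038). Its change was -0.04 under quantile normalization and -0.08 after division by the library sum.

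The smaller rises of this group depended on the scaling. Cpt2, the inner carnitine transferase, rose by 0.19 (± 0.07 SE; limma, adjusted p = 0.034), and lost its call when WT replicate 1 (adjusted p = 0.35) or cKO replicate 2 (adjusted p = 0.10) was left out. Etfa, an electron carrier subunit, rose by 0.12 (± 0.03 SE; limma, adjusted p = 3.5e-03), but its change was 0.02 under quantile normalization and -0.01 after division by the library sum. With that division, 3 genes of the group rose and 2 fell, Acadl and Etfb. Cpt1a, the regulated entry step, read 8.35 and 8.53 in the WT libraries against 8.30 and 8.46 in the cKO ones, with overlapping groups (limma: change -0.06 ± 0.10 SE, adjusted p = 0.69). Acadl and Etfb had log2 fold changes of -0.17 and -0.16 and did not pass; 53.0% of the exonic bases of Etfb lie in an overlapping predicted gene.

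Of the 5 storage and efflux genes, 3 rose and 0 fell, with a median of 0.85. Abcg1, the LXR target that exports cholesterol, read 11.06 and 11.08 in the WT libraries against 12.01 and 11.95 in the cKO ones, a 1.89-fold rise (limma: change 0.91 ± 0.04 SE, adjusted p = 9.4e-16). Soat1, which esterifies cholesterol for storage, read 11.15 and 11.22 in the WT libraries against 12.04 and 12.03 in the cKO ones, a 1.80-fold rise (limma: change 0.85 ± 0.04 SE, adjusted p = 3.0e-15). Abcg1 lies on chromosome 17 from 31057675 to 31117988 and Soat1 on chromosome 1 from 156424525 to 156474331. For both genes the gap between groups was many times the spread between replicates. Plin2, which coats lipid droplets, read 12.75 and 12.71 in the WT libraries against 12.95 and 12.99 in the cKO ones. It rose by 0.24 (± 0.03 SE; limma, adjusted p = 1.6e-07), but by only 0.04 under quantile normalization (adjusted p = 0.24).

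Abca1, the other LXR-driven exporter, had the lowest level per exonic length of all members, with log2 levels of 3.63 and 2.96 in WT and 4.33 and 3.96 in cKO. Its log2 fold change of 0.85 (SE 0.38) did not pass (limma adjusted p = 0.088), and it ranged from 0.51, without WT replicate 2, to 1.19, without WT replicate 1. Lpin1, a phosphatidate phosphatase, read 9.86 and 9.82 in the WT libraries against 9.85 and 9.996 in the cKO ones and did not pass (change 0.08, adjusted p = 0.32).

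**Figure D3:**
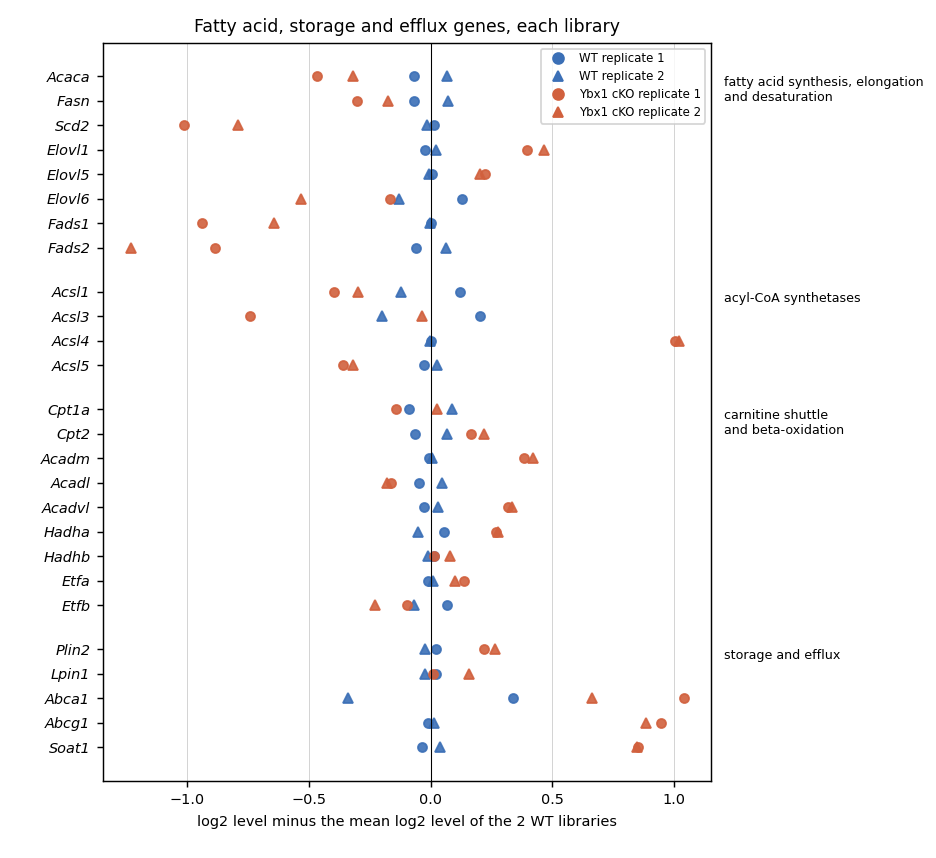
Log2 level of each fatty acid, storage and efflux gene in each library, minus the mean of the 2 WT libraries (circles replicate 1, triangles replicate 2). Fads2, Fads1 and Scd2 lie left of WT in both cKO libraries, and Acsl4, Abcg1 and Soat1 lie right of it with close replicates.

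Per kilobase of exons and 1000000 of the library sum, the highest WT levels among the members were those of Etfa (226), Plin2 (174), Elovl1 (74.96), Acsl5 (69.0) and Acadvl (55.7). Below them Elovl5 (31.1), Sqle (29.5), Hadhb (28.6), Acadm (27.2) and Abcg1 (26.5) were close to one another. Sqle was the highest sterol enzyme, ahead of Acat2 (23.9), Ebp (19.6) and Msmo1 (19.0). Fasn (1.63) and Acaca (0.302), the member genes of the synthesis step, were near the low end, with Abca1 (0.087) the lowest. The other carboxylase gene Acacb, not a member, stood at 5.29 in WT. Of the 8 members below a mean log2 level of 7, 2 passed, Scd2 and Hsd17b7.

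**Figure D4:**
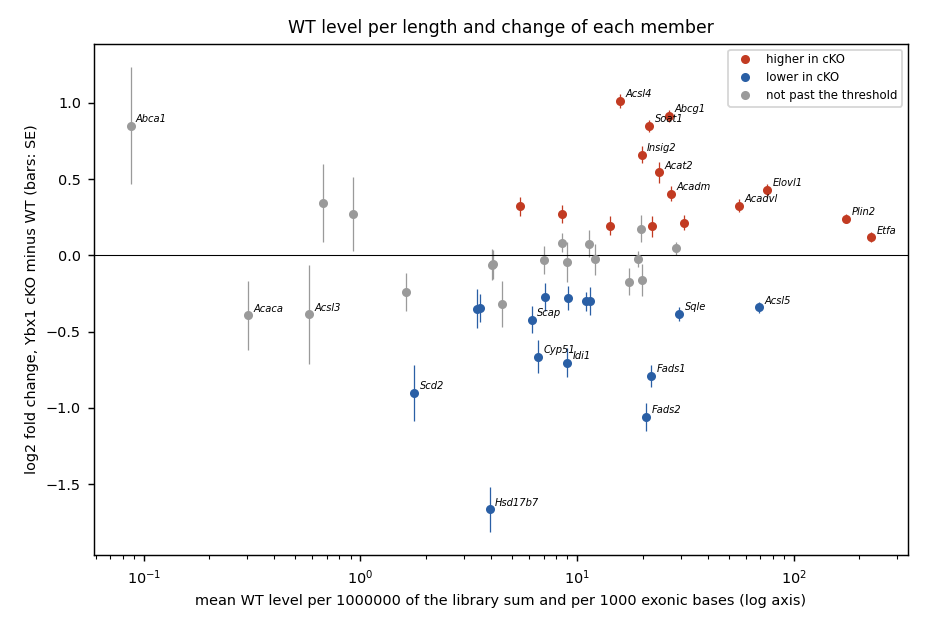
Mean WT level per exonic length (log axis) against log2 fold change (bars SE) for the 49 members, with colour for the limma call. Etfa and Plin2 have the highest levels and small changes, and Hsd17b7, with a WT level of 3.94, has the largest change.

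Other genes of these pathways, from lists that hold no member, also moved both ways. Beside the counts of these lists, 37.4% of all tested genes passed, 19.5% higher and 17.8% lower. Of tested genes at a mean log2 level of 7 or more, 61.4% passed. Of 27 tested genes of sterol uptake, transport and other sterol steps, 6 rose and 7 fell (median log2 fold change -0.07). Lbr, which serves both as a sterol reductase and as a nuclear envelope protein, fell by 0.86 (± 0.05 SE; limma, adjusted p = 4.1e-13), and Erlin2, an endoplasmic reticulum protein that takes part in degrading other membrane proteins, by 1.01 (± 0.07 SE; limma, adjusted p = 5.8e-12). The LXR gene Nr1h2 rose by 0.44 (± 0.04 SE; limma, adjusted p = 4.5e-10), and was named after its values were seen. Other receptor genes of this list, also named after their values were seen, did not all follow it. The other LXR gene, Nr1h3, was low and did not pass (limma adjusted p = 0.1). Rxra, also low, fell by 1.31 (± 0.45 SE; limma, adjusted p = 0.023), while Rxrb rose by 0.27 (± 0.10 SE; limma, adjusted p = 0.04). Of 15 genes that use isoprenoids, 7 rose and 3 fell (median 0.07), with the farnesyltransferase subunit gene Fnta up by 0.96 (± 0.06 SE; limma, adjusted p = 2.8e-12) and the dolichol synthesis gene Dhdds up by 0.67 (± 0.06 SE; limma, adjusted p = 5.5e-09).

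Of 19 other tested genes of fatty acid synthesis and elongation, 2 rose and 6 fell (median -0.03). Acly, which makes cytosolic acetyl-CoA from citrate, fell by 0.49 (± 0.04 SE; limma, adjusted p = 6.3e-11), and Hsd17b12, a reductase of chain elongation, rose by 0.47 (± 0.04 SE; limma, adjusted p = 8.9e-11). Of 29 other tested genes of fatty acid oxidation, 9 rose and 7 fell (median 0.04). Acadsb, a short branched-chain dehydrogenase, rose by 0.72 (± 0.04 SE; limma, adjusted p = 7.7e-13), and Crot, the peroxisomal carnitine transferase, by 0.60 (± 0.04 SE; limma, adjusted p = 1.6e-12). Pparg, a lipid-sensing nuclear receptor named after its values were seen, rose by 1.17 (± 0.20 SE; limma, adjusted p = 3.9e-05). Of 24 other tested genes of storage, lipolysis and glycerolipids, 10 rose and 3 fell (median 0.17), with the droplet protein gene Plin3 up by 0.56 (± 0.04 SE; limma, adjusted p = 1.1e-11) and Lpcat3, a phospholipid remodelling enzyme, up by 0.40 (± 0.04 SE; limma, adjusted p = 1.5e-08). The largest change of this list was a fall. Lpcat2, named after its values were seen and at 4.70 in WT, fell by 2.70 (SE 0.39, limma adjusted p = 4.3e-06).

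The marker Ptprc of all leukocytes stood at 12.07 to 12.11 in WT and 12.11 to 12.13 in cKO. Of 8 tested leukocyte genes 6 rose and 0 fell, with Itgb2 up by 0.71 and Laptm5 by 0.51. Other markers moved with the genotype. Summed per 1000000 of the library sum, the 18 mitosis genes with a row came to 1532 and 1493 in WT and 617 and 612 in cKO, and all 18 fell, Top2a among them and Ccnb1 by 1.30. The 6 mature neutrophil markers with a row, of 14, came to 490 and 525 in WT and to 1278 and 1290 in cKO (5 rose, 1 fell), with Mmp8 up by 2.75 and Mmp9 by 1.67. The 8 monocyte and macrophage markers with a row, of 13, came to 6654 and 6765 in WT and to 10585 and 10620 in cKO. Of 7 tested, 5 rose and 0 fell, Lyz2 by 2.25 and Cd68 by 0.77, while Csf1r and Mrc1 did not pass. Most of the gain in the sum came from Lyz2, at 857 in WT and 3731 in cKO per kilobase of exons. Adgre1, which rose by 0.09 in the limma fit, stood at 1610 in WT and 1573 in cKO on that scale. The part of cell cycle or cell type in the changes of the lipid genes was not tested. Markers of adipocytes, the lipid-storing cells of marrow, summed to 27.3 and 26.3 in WT and 30.4 and 31.4 in cKO over 9 of 10 genes (of 5 tested, Pparg rose and Lpl fell, the latter not when WT replicate 1, WT replicate 2 or cKO replicate 2 was left out), with Lep at -2.19 and -2.16 in WT and -2.18 and -2.19 in cKO by log2 level, Cfd below 0 in every library and Plin1 between 1.51 and 1.93. The 4 erythroid genes with a row, of 11, came to 197 and 189 in WT and to 141 and 132 in cKO (3 fell, 0 rose), with Hemgn down by 1.31 and Tfrc by 0.51. The 2 T and NK cell genes with a row, Ccl5 and Gzmb, both fell, and the B cell gene Cd79b rose by 0.26 (limma, adjusted p = 0.043), a call lost when WT replicate 1 (adjusted p = 0.27), WT replicate 2 (adjusted p = 0.064) or cKO replicate 1 (adjusted p = 0.20) was left out, and after division by the library sum (adjusted p = 0.31).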

How the data were processed

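RNA-seq was analysed for 2 WT and 2 Ybx1 cKO libraries. The deposited table gives each gene a score on a log scale of unstated base (lowest -3.19, highest 27.9). CASAVA, HISAT2 2.1.0, featureCounts and DESeq2 on GRCm38 are named, per the submitters' processing notes, with no role or order. Strand setting and filters are not given in these sources. Columns were matched to samples by title, and 0 columns were left out.

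Scores were multiplied by 0.693: the SD between replicates was then 1.10 (WT) and 1.31 (cKO) times Poisson noise, against 4.85 and 5.94 if read as plain log2. The levels then summed to between 11074317 and 12134026 per library. Testing, with limma 3.58.1 in R 4.3.3 (mean-variance trend, two-sided, Benjamini-Hochberg over all genes tested, threshold 0.05), took genes whose score reached 1 in 2 or more libraries, and was checked on simulated data. Python 3.11.15 with pandas 2.3.3 made the tables.

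Members and lists were chosen with earlier results of these data known. Each library's value is given for members that passed and changed by 0.3 or more and for the SREBP, INSIG, Fasn and Sqle genes, and for some others. From each further list, up to 2 genes with the smallest p were to be named. Positions, exonic lengths and shared 50-base words come from GENCODE M21, promoter windows from RefSeq.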

Additional observations from a re-analysis of the deposited data

How the results depend on the processing

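Alternatives covered filters, priors, scalings, thresholds, plain log2, a replicate block and each left-out library; division by the library sum was added after the data were seen. No called member changed sign except one: the log2 fold change of Etfa was -0.0054 after that division. Of 30 called members, 10 kept call and direction in all 13 alternative fits. With 1 prior variance at every level, the genes called over all genes tested numbered 2267 (14.6%), with 6 members higher and 4 lower. Without a filter, 9 members fell. Requiring a change of 1 or more left 854 genes, 1 member higher and 2 lower, which is smaller by construction. Leaving out single libraries gave 14 to 16 rises and 11 to 16 falls, and 7 called members lost the call at least once. Of 19 uncalled members, 7 were called in at least 1 alternative. Same-numbered libraries did not deviate together (r = 0.013 across genes). That correlation covers all tested genes, many of them low and noisy, so it cannot tell whether same-numbered libraries were handled together. With the replicate block 6026 genes were called, and 15 members rose and 15 fell. Depth is unknown, and members below a mean log2 level of 7 have the widest errors.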
